A study of Mus musculus with 18 samples.

Results

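This report covers 7 genes of the Nodal and Lefty pathway, *Nodal*, *Tdgf1*, *Acvr2b*, *Smad7*, *Lefty1*, *Lefty2* and *Cer1*, out of 18659 genes in the table of all replicate sets. The 7 genes were chosen on their differences from the scrambled siRNA (scr) library of the same set, so those differences are described here with their spread and no test is attached to them. The study knocked down *Stag1*, which encodes a subunit of cohesin, in male E14 mouse embryonic stem cells (mESCs), a pluripotent line, to measure the effect on the transcriptome. All 16 libraries analyzed came from cells grown in serum with LIF, and all were depleted of rRNA. Set 1 held 1 scr library and 3 libraries (a, b and c) of the SmartPool siRNA against *Stag1* (SP). Set 2 held 1 library each of scr, SP, a pool of siRNAs to the 3′ end of *Stag1* (3p), 1 custom siRNA duplex to its 5′ end (5p), an enzymatically prepared siRNA to the upstream SATS start of *Stag1* (SATS), and untreated cells. The catalog number endings that the paper lists for 3p are also among those of SP. The 2 pools may therefore share siRNAs, and likeness between SP and 3p is not that of independent reagents. Set 3 held scr, SP, 3p, 5p, SATS and a siRNA to luciferase, which has no target in mouse cells. Cells were harvested 24 h after siRNA treatment. Every siRNA group is a transient knockdown (KD) of 1 cell line, and the labels number the replicate sets without saying whether the cells of each set were cultured separately, so the spread between libraries of a group may be partly technical.

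Nodal is a secreted ligand of the TGF-beta superfamily. It binds activin receptors together with the co-receptor Cripto, encoded by *Tdgf1*, and the receptors phosphorylate Smad2 and Smad3, which enter the nucleus with Smad4 and partners such as Foxh1. *Lefty1*, *Lefty2* and *Smad7* are both targets and inhibitors of the pathway: Lefty proteins block the ligand and co-receptor outside the cell, Smad7 blocks the receptors inside it, and Cerberus, encoded by *Cer1*, binds Nodal in the embryo before gastrulation. In mESCs the pathway is active at low level and its output is read from *Lefty1* and *Lefty2* among others.

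Values are counts per gene divided by a DESeq2 size factor per library, called normalized values below. Set 1 was shallower, with 9023224 to 14040830 reads per library of which 69.2% to 79.1% fell on the rRNA gene *Rn45s*, against 32137666 to 45660840 reads in the 12 libraries of sets 2 and 3. One read was therefore worth 3.22 to 8.05 in set 1 and 0.353 to 0.479 in sets 2 and 3, and intervals given for set 1 cover counting error only. *Stag1* itself had normalized values of 2016, 1876 and 2113 in the scr libraries of sets 1, 2 and 3. It lay between 365 and 660.4 in the 9 SP, 3p and 5p libraries, and at 947 and 1051 in the SATS libraries. Untreated cells had 1619 and the luciferase library 2199.8, so each KD library lay below each control. The 8 mESC markers (among them *Nanog* and *Pou5f1*) were each covered by at least 3 reads in all 16 libraries.

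Compared per kilobase of exon, *Tdgf1* had the highest level of the 7 genes and *Cer1* the lowest. Over the 12 libraries of sets 2 and 3 the median value per kilobase was 1958 for *Tdgf1*, 522 for *Lefty1*, 467 for *Nodal*, 329 for *Smad7*, 143 for *Acvr2b* and 134 for *Lefty2*. The place of *Lefty1* in this order depended on the set: its value per kilobase was 177 to 277 in set 2, below the 397 to 507 of *Nodal*, and 767 to 1381 in set 3, above the 437 to 516 of *Nodal*. *Acvr2b* and *Lefty2* were neighbors whose levels per kilobase overlapped in both sets, with 101 to 140.0 against 104 to 133 in set 2, and 147 to 194 against 135 to 292 in set 3. *Smad7* stayed below *Nodal* without overlap in both sets, at 307 to 344 in set 2 and 324 to 367 in set 3.

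**Figure D1:**
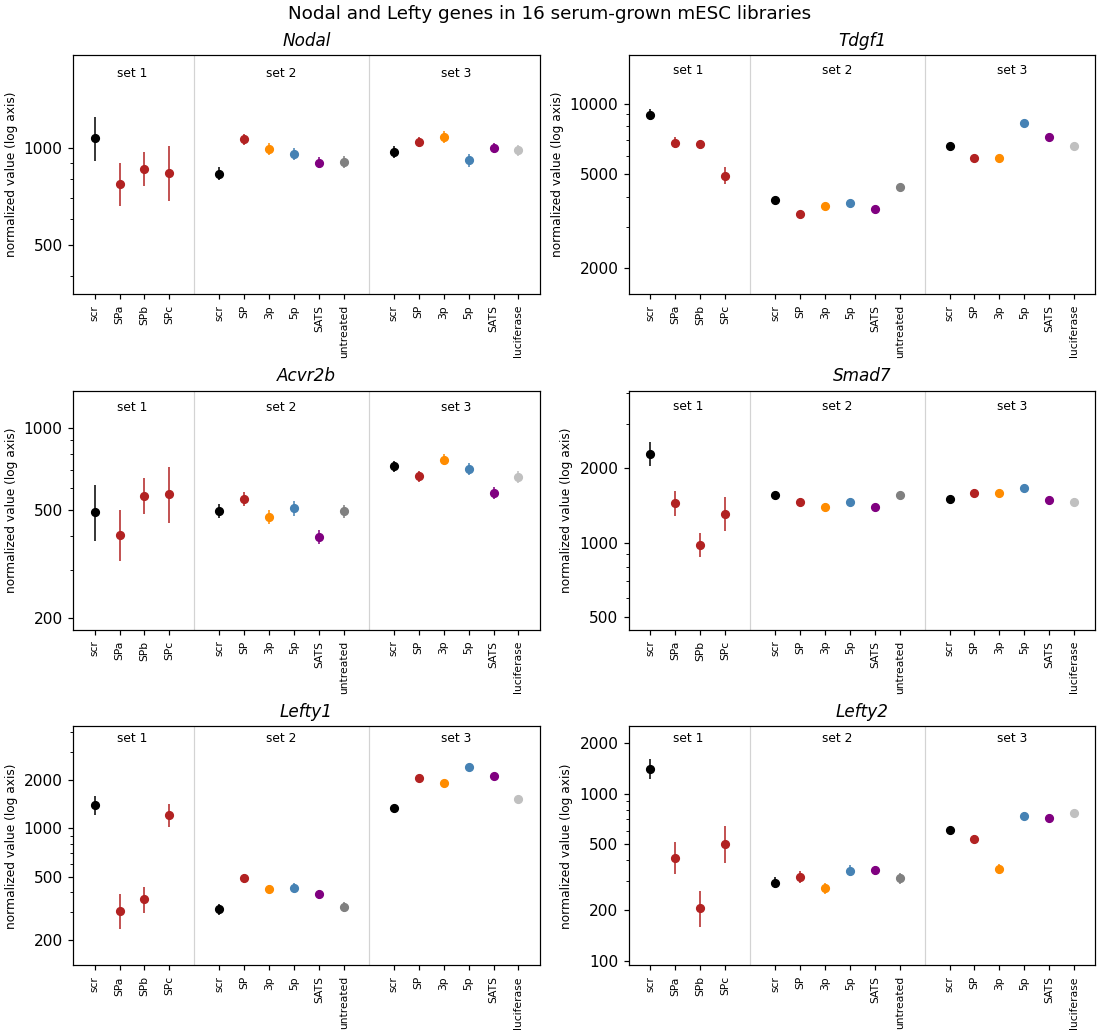
Normalized value (log axis) of the 6 genes with reads in each of the 16 libraries, grouped by set and colored by siRNA, with bars for the 95% counting interval. The level of *Lefty1* differs without overlap between set 2 (311 to 487) and set 3 (1349 to 2429), as do those of *Tdgf1*, *Lefty2* and *Acvr2b* by smaller steps, and the scr library of set 1 is the highest of its set for *Nodal*, *Tdgf1*, *Smad7*, *Lefty1* and *Lefty2*.

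*Nodal*, the ligand (chr10:61417972-61425338 of GRCm38, plus strand), was the steadiest gene with *Smad7* in the deeper sets. In set 2 it had a normalized value of 832 in scr, 1063 in SP, 992 in 3p, 959.7 in 5p, 900.5 in SATS and 906 in untreated cells. The set 3 values were 971.5 in scr, 1041 in SP, 1082 in 3p, 915 in 5p, 1001 in SATS and 983 in luciferase. It was above scr of its set in 7 of the 8 KD libraries of sets 2 and 3, and the exception was 5p of set 3. The mean log2 difference from scr was 0.23 ± 0.18 (SD, n = 2 sets) with SP, 0.20 ± 0.070 with 3p, 0.060 ± 0.21 with 5p and 0.078 ± 0.050 with SATS. In set 2 untreated cells, which received no siRNA, differed from scr by 0.12, against 0.21 with 5p and 0.11 with SATS. The difference with SATS was thus smaller there than one between 2 controls. In set 3 luciferase differed from scr by 0.018, against −0.086 with 5p and 0.043 with SATS. In set 1 *Nodal* had 1071.5 in scr and 771, 859 and 838 in the 3 SP libraries, and all 3 lay below scr.

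*Tdgf1* (chr9:110939603-110946158, minus strand) encodes the co-receptor Cripto, which mESCs carry on their surface. Its normalized value in set 2 was 3899.8 in scr, 3399.8 in SP, 3669 in 3p, 3788 in 5p, 3567 in SATS and 4420.0 in untreated cells. Set 3 gave 6589 in scr, 5853 in SP, 5847 in 3p, 8261 in 5p, 7195 in SATS and 6627 in luciferase. SP and 3p were below scr in both sets, by −0.18 ± 0.019 and −0.13 ± 0.059 on the log2 scale (SD, n = 2). With 5p the sign differed between the sets (−0.04 in set 2 and 0.33 in set 3), as it did with SATS (−0.13 and 0.13). In set 2 untreated cells lay 0.18 above scr, close in size to the −0.20 with SP there. In set 3 luciferase lay 0.0083 above scr, against −0.17 with SP and with 3p. In set 1 the value was 8960.0 in scr and 6830.3, 6731 and 4945 in SP, or 76.2%, 75.1% and 55.2% of scr. Of the 75-base windows of the *Tdgf1* transcript, 8.67% occurred unchanged in the processed pseudogene *Tdgf1-ps1* on chromosome 16, so reads there could have been assigned to either copy or left out.

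*Acvr2b* (chr9:119402118-119434995, plus strand) encodes a type II activin receptor. An annotated antisense gene lies within it, and strand was used in counting only for paired-end libraries, so antisense reads may be included. In set 2 it had 496 in scr, 549.8 in SP, 471 in 3p, 506 in 5p, 398 in SATS and 493 in untreated cells. Set 3 values were 724 in scr, 663 in SP, 764 in 3p, 709.6 in 5p, 576 in SATS and 659.6 in luciferase. SATS was the lowest library of both sets, at 80.2% and 79.6% of scr, with a mean log2 difference of −0.32 ± 0.0081 (SD, n = 2). SP, 3p and 5p had mean log2 differences between 0.00 and 0.01, and each was of opposite sign in the 2 sets, except that 5p was above zero in both with the libraries rescaled to the same total without *Rn45s* and *Lars2*. In set 1 the counting intervals of all 3 SP libraries included the level of scr, with 82.7% (59.8% to 115%), 115% (87.1% to 153%) and 117% (83.2% to 164%) of scr.

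*Smad7* (chr18:75367529-75395935, plus strand) encodes the intracellular inhibitor that competes for the receptors. It was flat in the deeper sets: from 1387 in SATS to 1554 in untreated cells in set 2, and from 1463 in luciferase to 1659.8 in 5p in set 3. The scr libraries had 1552 and 1497. All 8 log2 differences of KD libraries from scr lay between −0.16 and 0.15, negative in 4 libraries of set 2 and positive in 3 of the 4 in set 3. In set 1 the value was 2284 in scr and 1438, 978 and 1305 in SP, or 63.0% (53.8% to 73.7%), 42.8% (36.6% to 50.1%) and 57.1% (47.1% to 69.1%) of scr. The scr library of set 1 was thus the highest of the 16 libraries for *Smad7*, as it also was for *Tdgf1* and *Lefty2*.

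*Cer1* (chr4:82881751-82885148, minus strand), the gene of the secreted Nodal antagonist Cerberus, was at the detection floor. It had 0 reads in 10 of 16 libraries, including all 4 of set 1 and 5 of the 6 of set 2, where 3p had 2 reads. In set 3 it had 6 reads in scr, 1 in SP, 1 in 3p, 0 in 5p, 3 in SATS and 1 in luciferase. A count of 0 allows up to 3 reads, which is a normalized value of up to 24.2 in set 1 and up to 1.44 in sets 2 and 3. No difference between siRNAs was detectable at this depth, and *Cer1* did not reach the summed value of 10 needed to enter the test below.

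*Lefty1* and *Lefty2* encode the extracellular inhibitors and lie side by side on chromosome 1, *Lefty2* at chr1:180893108-180899103 and *Lefty1* at chr1:180935022-180938400, both on the plus strand and 35918 bases apart. Their coding sequences, 1104 bases each, were identical at 91.8% of positions, with a longest identical run of 140.0 bases. Of the 75-base windows of the *Lefty1* transcript, 11.2% occurred unchanged in the *Lefty2* transcript, and 29.8% did with up to 2 mismatches. The most different 60-base stretch of the coding sequence lies in exon 1, at chr1:180935143-180935202 for *Lefty1* and chr1:180893217-180893276 for *Lefty2*, and it is shown because reads there tell the 2 genes apart (capitals mark the 18 bases that differ):
Lefty1: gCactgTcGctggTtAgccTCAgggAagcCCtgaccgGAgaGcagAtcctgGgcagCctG
Lefty2: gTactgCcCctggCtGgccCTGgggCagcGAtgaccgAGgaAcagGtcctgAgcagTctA
A 75-base read cannot be assigned to 1 gene where its whole length is identical in both. A stretch of exon 2 (chr1:180936568-180936627 in *Lefty1*, chr1:180894156-180894215 in *Lefty2*) has the same 60 bases in both genes and is shown because bases there do not tell the 2 genes apart:
Both genes: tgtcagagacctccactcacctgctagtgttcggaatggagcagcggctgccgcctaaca

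*Lefty1* had the most uniform difference of the 7 genes in sets 2 and 3 and the largest change of level between sets. In set 2 its normalized value was 311 in scr and 322 in untreated cells, and 487 in SP, 418 in 3p, 426 in 5p and 387 in SATS. In set 3 it was 1349 in scr and 1522 in luciferase, and 2071 in SP, 1935 in 3p, 2429 in 5p and 2120.0 in SATS. Within each set the 4 KD libraries were all above both control libraries, without overlap. Over all genes tested, 5.04% had all 8 KD libraries of sets 2 and 3 above scr of their set, which is the background beside which the 1 member of 7 with this pattern stands. The log2 difference from scr was 0.63 ± 0.018 (SD, n = 2 sets) with SP, 0.47 ± 0.069 with 3p, 0.65 ± 0.28 with 5p and 0.48 ± 0.24 with SATS. The untreated and luciferase libraries differed from scr by 0.05 and 0.17. The 4 KD libraries of a set share its only scr library, so their differences are not independent of each other. With each library rescaled to the same total without *Rn45s* and *Lars2*, all 8 differences stayed above zero, from 0.27 to 0.90.

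In set 1 *Lefty1* lay on the other side of scr. Its normalized value was 1399.6 in scr (209 reads) and 306, 360.2 and 1208 in SP libraries a, b and c (65, 112 and 150 reads). Libraries a and b had 21.8% (16.3% to 29.0%) and 25.7% (20.3% to 32.5%) of scr, whereas library c had 86.3% with a counting interval of 69.5% to 107% that includes scr. SP of set 1, taken as the mean of its libraries, thus differed from scr by −1.16 on the log2 scale, against 0.64 and 0.62 in sets 2 and 3, and the mean over the 3 sets was 0.033 ± 1.04 (SD, n = 3). The scr level of set 1 was close to that of set 3 (1349), and the levels of SP libraries a and b were close to that of scr in set 2 (311).

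*Lefty2* had no common direction across the siRNAs in sets 2 and 3. In set 2 it had 293 in scr, 317 in SP, 271 in 3p, 346 in 5p, 347 in SATS and 310.4 in untreated cells. In set 3 it had 606 in scr, 533 in SP, 353 in 3p, 734 in 5p, 712 in SATS and 762 in luciferase. In both sets 3p was the lowest library, while 5p and SATS were above scr. In set 2, however, 3p had 92.6% of scr, with a counting interval of 83.1% to 103% that includes scr. In set 3 it had 58.2% (53.4% to 63.5%). The mean log2 difference from scr was −0.44 ± 0.47 (SD, n = 2) with 3p, of which −0.78 came from set 3 and −0.11 from set 2, 0.26 ± 0.027 with 5p, 0.24 ± 0.0085 with SATS and −0.04 ± 0.21 with SP. In set 3 luciferase lay 0.33 above scr, farther than 5p (0.28) or SATS (0.23), so that these 2 were within the difference between control siRNAs there. In set 2, which had no luciferase library, 5p and SATS lay 0.24 above scr and untreated cells 0.08. Both 3p libraries below and both 5p libraries above scr was a pattern held by 5.31% of genes tested.

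In set 1 *Lefty2* was lower in all 3 SP libraries: 1406 in scr (210 reads) against 414, 206 and 499 in libraries a, b and c (88, 64 and 62 reads). These were 29.4% (22.7% to 37.9%), 14.6% (10.9% to 19.4%) and 35.5% (26.3% to 47.3%) of scr. The second deposited table, which holds set 1 scaled by edgeR, gave 29.4%, 14.7% and 35.6%, and for *Lefty1* 21.8%, 25.9% and 86.6%. Of the genes whose values averaged 50 or more in set 1, 0.642% had all 3 SP libraries at or below 50% of scr, and *Lefty2* was the 1 member among them. There is 1 scr library in set 1, so this difference has no replicate of the control.

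**Figure D2:**
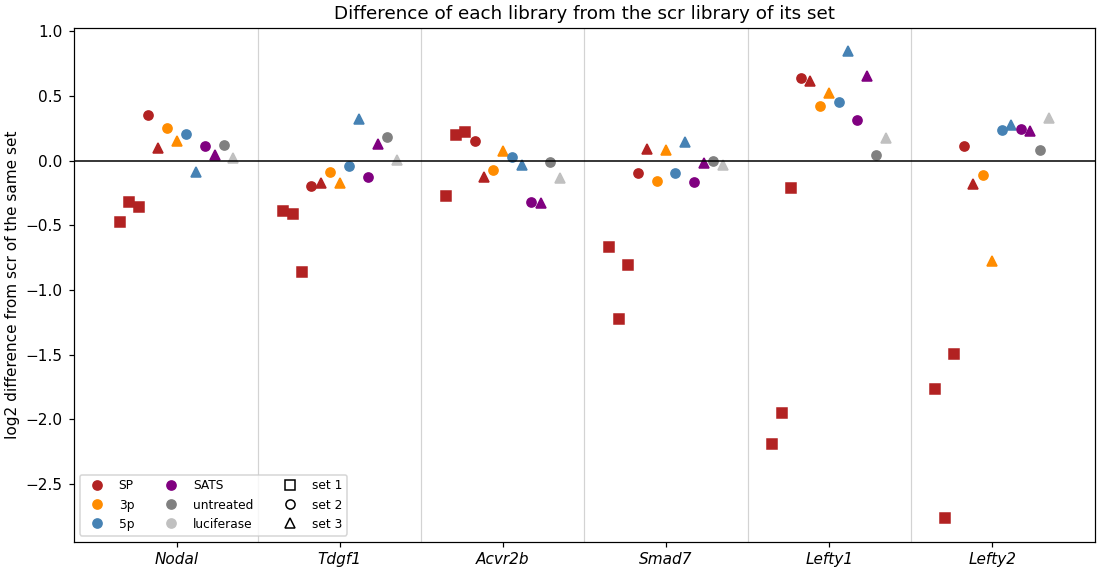
Log2 difference of each KD, untreated or luciferase library from scr of its own set for 6 genes, with color for the siRNA and shape for the set. The set 1 squares lie below zero for every gene but *Acvr2b*, and the 8 KD points of *Lefty1* in sets 2 and 3 lie between 0.31 and 0.85.

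Sums of marker genes also differed between scr and SP in set 1. The summed value of 10 primitive endoderm markers, an extraembryonic cell type that arises in mESC cultures, was 7031 in scr and 4842, 2061 and 1635 in SP libraries a, b and c. The marker *Lama1* alone made up 4808 of the sum in scr and 3074, 1457 and 693 in the SP libraries. All 10 markers had at least 3 reads in scr and in libraries a and b, and 7 of 10 did in c. The summed value of 8 mESC markers was 56854 in scr and 47634, 41857 and 33446 in SP libraries a, b and c. The values of *Tdgf1* ran in the same order of libraries as both sums, whereas *Lefty1* and *Lefty2* were highest of the SP libraries in c, where both sums were lowest. Library c also had higher sums of other markers: the summed value of 8 primitive streak markers was 572 there against 134 in scr, 89.3 in a and 129 in b, and that of 6 fibroblast markers was 451 against 194, 197 and 83.6. These sums lie near the floor. At least 3 reads covered 1 of the 8 streak markers in scr, 2 in a, 4 in b and 5 in c. For the 6 fibroblast markers the counts were 3, 2, 2 and 3. The part of these cell types in the set 1 differences was not tested, and in bulk RNA fewer cells of a type and less RNA per cell cannot be told apart. The part of depth was not tested either. The pattern of SP below scr in all 3 libraries of set 1 and above it in sets 2 and 3, which *Lefty1* and *Nodal* had, was held by 6.8% of the genes with values averaging 50 or more in set 1.

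The ratio of *Lefty1* to *Lefty2* is free of library scaling, since both values come from the same library. It was 1.06 in scr of set 2 (95% counting interval 0.956 to 1.18) and 1.04 in untreated cells, against 1.54 in SP, 1.54 in 3p, 1.23 in 5p (1.12 to 1.36) and 1.11 in SATS (1.02 to 1.22). In set 3 it was 2.23 in scr (2.10 to 2.37) and 1.997 in luciferase, against 3.88 in SP, 5.48 in 3p (5.09 to 5.92), 3.31 in 5p and 2.98 in SATS. In both sets the 4 KD libraries had a higher ratio than both controls, with SATS the lowest of the KDs, but in set 2 the intervals of 5p and SATS overlap that of scr. The ratio in 3p was equal to that in SP in set 2 and higher than any other in set 3. In set 1 it was 0.995 in scr (0.818 to 1.21) and 0.739, 1.75 and 2.42 in the SP libraries, so library a lay on the other side of scr from b and c, with an interval of 0.528 to 1.03 that overlaps that of scr.

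**Figure D3:**
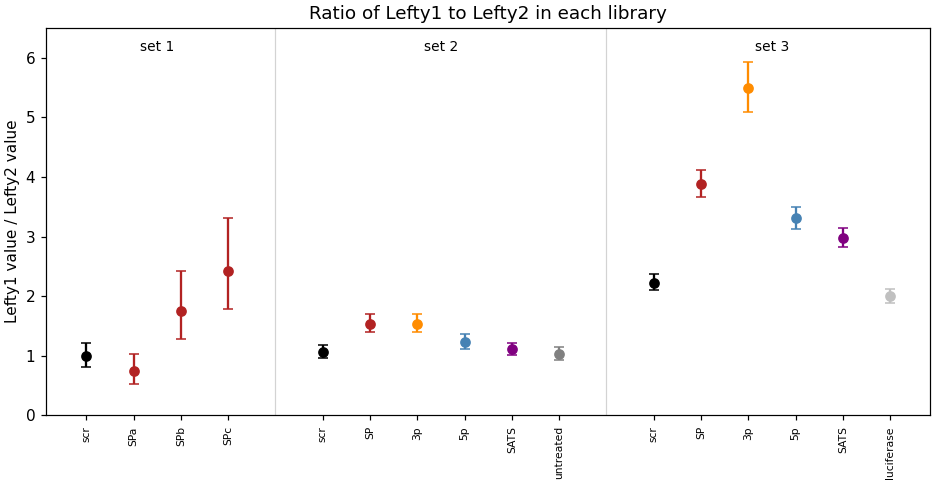
Ratio of the normalized value of *Lefty1* to that of *Lefty2* in each of the 16 libraries, with bars for the 95% counting interval and color for the siRNA. In set 3 the ratio runs from 1.997 in luciferase to 5.48 in 3p, and all of set 2 lies between 1.04 and 1.54.

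The siRNAs to the 2 ends of *Stag1* left similar amounts of its RNA, 392 and 365 with 3p and 441 and 401 with 5p in sets 2 and 3, so the member genes were set side by side between them. *Lefty2* had 128% of its 3p level in 5p in set 2 and 208% in set 3. *Tdgf1* had 103% and 141%, *Lefty1* 102% and 126%, and *Nodal* 96.7% and 84.6%, so each of these 4 genes kept its direction in both sets with a smaller difference in set 2. *Smad7* had 105% in both sets. *Acvr2b* had 107% in set 2 and 92.9% in set 3, on opposite sides of equality. The summed value of the 8 mESC markers was 25700.4 in 3p and 32723 in 5p in set 3, but 34285 in 3p and 31863 in 5p in set 2, and its part in these differences was not tested.

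The differences that chose the member genes were taken within a set, which leaves out their level in set 3 against set 2. Earlier results of these data were known at the choice. The level was tested over 5 pairs of libraries with the same siRNA (limma on log2 of the value plus 1, with the siRNA group as a term). The 5 libraries of a set are not replicates of that set. The SD, SE and p below therefore cover the spread between libraries or pairs, not the spread between sets. The sets also differed in marker levels, and which of culture, library preparation or sequencing set them apart cannot be told apart here. Of all 16490 genes tested, 51.6% differed between the sets (limma with Benjamini-Hochberg adjustment), so a call on its own says little about a gene. Of 6 members tested, 4 were higher in set 3 and 2 did not pass, and the median log2 difference of the 6 was 0.68 against −0.006 over all genes.

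*Lefty1* was higher in set 3 by 2.27 on the log2 scale (SE 0.066), with a mean normalized value of 406 ± 64.0 (SD, n = 5) in set 2 and 1981 ± 397 (SD, n = 5) in set 3 (adjusted p = 2.8e-11, limma with Benjamini-Hochberg adjustment). All 5 pairs were higher, by 2.09 to 2.51, and the fitted difference ranked 9 from the highest of 16490 genes. *Tdgf1* was higher by 0.87 (SE 0.063, adjusted p = 8.8e-08), *Lefty2* by 0.86 (SE 0.089, adjusted p = 2.7e-06) and *Acvr2b* by 0.51 (SE 0.061, adjusted p = 1.2e-05), each from limma with Benjamini-Hochberg adjustment and each in 5 of 5 pairs. *Nodal* differed by 0.08 (SE 0.055, adjusted p = 0.24, higher in 3 of 5 pairs) and *Smad7* by 0.11 (SE 0.050, adjusted p = 0.084, higher in 4 of 5 pairs), from limma with Benjamini-Hochberg adjustment. *Smad7* passed in edgeR's quasi-likelihood test (adjusted p = 0.046) and without the scr pair (adjusted p = 0.034).

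**Figure D4:**
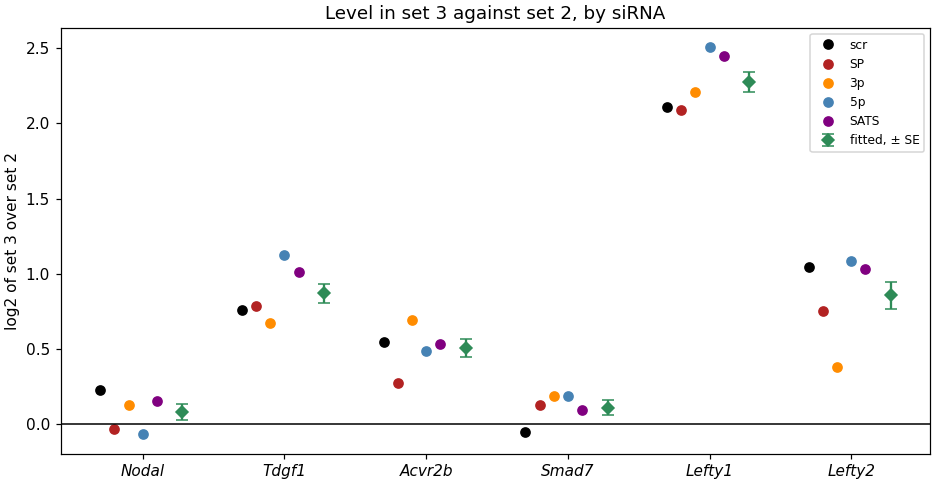
Log2 ratio of set 3 over set 2 for each siRNA (circles) and the fitted difference with its standard error (green diamonds) for 6 genes. *Lefty1* lies between 2.09 and 2.51 with every siRNA, *Tdgf1*, *Lefty2* and *Acvr2b* are above zero with every siRNA, and *Nodal* and *Smad7* lie near zero.

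Markers of other cells also differed between these sets. Over the 6 libraries of each set, the summed value of 6 fibroblast markers was 2546 to 5625 in set 2 and 337 to 545 in set 3. The marker *Col1a1* alone made up 2223 of 2811 in scr of set 2 and 367 of 545 in scr of set 3. The summed value of the 10 primitive endoderm markers was 5375 to 6529 in set 2 and 1853 to 2472 in set 3, and that of the 8 mESC markers was 31863 to 35903 and 25700.4 to 32723. Their part in the differences of *Lefty1*, *Lefty2*, *Tdgf1* and *Acvr2b* between sets was not tested.

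The rest of the pathway was read from a list of 41 ligands, convertases, receptors, Smads, inhibitors and targets, of which 40 were in the table and 39 could be tested. Without the set as a term, limma with Benjamini-Hochberg adjustment called 0 of 39 in SP, 3p, 5p or SATS against scr, and the same test called 0.00606%, 0.00606%, 0.0121% and 0.0% of all 16490 genes. Between 5p and 3p it called 0 of 39 and 0.0% of all genes, and in SP against scr over the 3 sets 0 of 39 and 0.0% of 15970 genes. At an unadjusted p under 0.05 these 6 comparisons had 1, 0, 0, 1, 1 and 0 list genes. Of all genes, 410, 286, 598, 650 and 674 of 16490 and 84 of 15970 were under it. By adjusted p, edgeR's quasi-likelihood test on the reads also called 0 of 39 in each. The sets pair the samples, since libraries of the same set deviated together, so the calls with the set as a replicate block are given beside these.

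With the block, limma with Benjamini-Hochberg adjustment called 0.746% of all genes with SP, 0.285% with 3p, 2.37% with 5p, 2.64% with SATS and 3.26% between 5p and 3p, and 0, 0, 1, 1 and 1 of the 39 list genes. The list's counts were thus near the background, and the 3 genes are given as values. *Tgfb2*, the gene of a TGF-beta ligand, fell by 0.76 with 5p (SE 0.18, adjusted p = 0.048), from 752 to 611 in set 2 and from 279 to 119.8 in set 3, and did not pass in edgeR with the block. In set 2 its log2 differences with SP (−0.47) and 3p (−0.35) were below that with 5p (−0.30), and the luciferase library of set 3 also lay at −0.30. The summed value of the 6 fibroblast markers ranked the libraries of set 3 as *Tgfb2* did, from 545 in scr through 529 in SATS, 441 in 3p, 376 in luciferase and 375 in SP to 337 in 5p. In set 2 the orders differed. There the sum was 5625 in untreated cells, 3607 in SATS, 2811 in scr, 2698 in SP, 2601 in 5p and 2546 in 3p. *Tgfb2* had 995, 726, 752, 543, 611 and 590 in the same libraries. The part of the fibroblast markers in the difference was not tested. *Tgfb2* was below scr in all 8 KD libraries of sets 2 and 3, as were *Inhba* and *Inhbb*, which encode activin subunits, and *Fst*, which encodes the activin binder follistatin. *Tgfb2*, *Inhbb* and *Fst* were also below scr in luciferase of set 3 (−0.30, −0.29 and −0.24), but above it in untreated cells of set 2 (0.40, 0.19 and 0.15). These 4 of 39 list genes, of which *Inhba* was named after its values were seen, stand beside 5.92% of all genes. *Pcsk6*, a convertase that can cleave the Nodal precursor, fell by 0.38 with SATS (SE 0.088, adjusted p = 0.037), from 637 to 477 and from 524 to 413. *Tgfbr1*, a type I TGF-beta receptor, was lower in 5p than in 3p, with a log2 difference of −0.64 (SE 0.11, adjusted p = 0.0071), with 652 against 858 in set 2 and 673 against 1250.4 in set 3.

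At an unadjusted p under 0.05 limma with the block had 11 list genes with SP, 7 with 3p, 8 with 5p, 6 with SATS and 10 between 5p and 3p, and of all 16490 genes 2061, 1720, 2595, 3108 and 2610. By edgeR's quasi-likelihood test with the block the calls were 1, 0, 0, 1 and 2 of 39 list genes, against 0.813%, 0.303%, 2.41%, 3.34% and 3.21% of all genes. In SP against scr over the 3 sets limma with the block called 0 of 39 and 0.0% of all genes, with 3 list genes and 935 genes in all at an unadjusted p under 0.05. By edgeR's quasi-likelihood test with the block and Benjamini-Hochberg adjustment that comparison had 0.413% of all genes and 1 list gene, *Inhbb*, which encodes an activin subunit (log2 difference −1.41, adjusted p = 2.0e-05). *Inhbb* had 984 in scr of set 1 and 724, 212 and 72.5 in SP, 255 against 125 in set 2 and 80.5 against 20.2 in set 3, and was named after its values were seen.

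**Figure D5:**
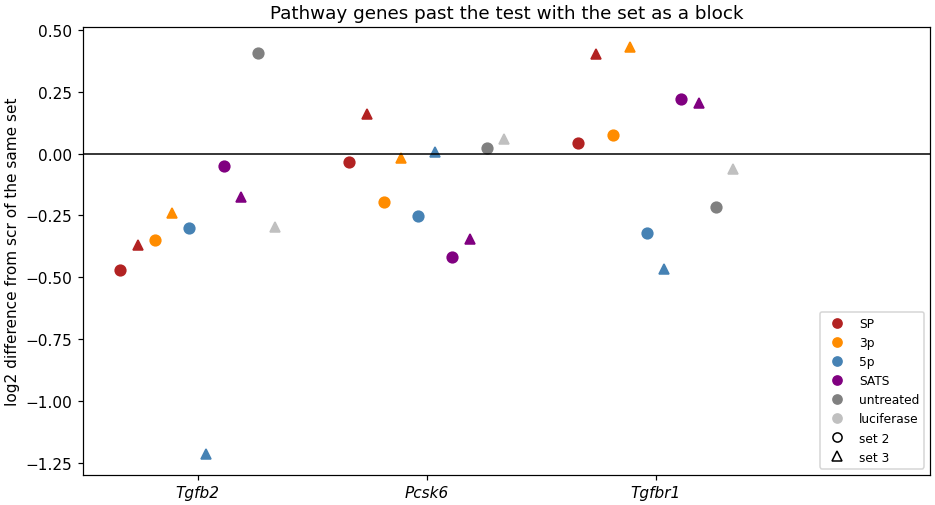
Log2 difference from scr of the same set for the 3 list genes that passed with the set as a block, in the 10 other libraries of sets 2 and 3, colored by siRNA. *Tgfb2* is lowest in 5p of set 3 at −1.21, *Pcsk6* is below zero in both SATS and both 3p libraries and in SP and 5p of set 2, and *Tgfbr1* is below zero with 5p and in the untreated (−0.22) and luciferase (−0.06) libraries and above it with SP, 3p and SATS.

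Between sets the list split in both directions. In set 3 against set 2, 27 of 39 list genes passed in limma with Benjamini-Hochberg adjustment, 13 higher and 14 lower, beside 51.6% of all genes (3988 higher and 4520 lower of 16490), with a median log2 difference of 0.032 over the 39. Of 7 ligands 1 was higher and 5 were lower, and both convertases were lower. Of 14 inhibitors 5 were higher and 5 lower, and of 5 Smads and nuclear partners 3 were higher and 1 lower. Of 4 receptors tested 2 were higher and 1 lower, and of 6 targets 2 were higher and 0 lower. Among the listed genes, the highest of each role by normalized value was *Gdf3* among ligands (mean of 899.7 over the 12 libraries of sets 2 and 3), *Furin* among convertases (1231), *Cfc1* as the other co-receptor (4.12), *Tgfbr1* among receptors (905), *Trim33* among Smads and nuclear partners (2400.0), *Skil* among inhibitors (4498) and *T* among targets (192). These values are not corrected for length.

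The genes whose pattern was most like each member were taken over the 12 libraries of sets 2 and 3, by the Pearson correlation of log2 values centered on the mean of the set, among 11026 genes. They were *Fgfr2*, *Cmtm3* and *Ldhb* for *Lefty1* (r = 0.92 each), *Tfam*, *Sephs2* and *Tbrg1* for *Lefty2* (0.91, 0.90 and 0.90), and *Dyrk1b*, *Numa1* and *Tap1* for *Nodal* (0.93, 0.90 and 0.89). For *Tdgf1* they were *Fsd1*, *Psmg1* and *Fastk* (0.93, 0.93 and 0.92), for *Acvr2b* *Mtss1l*, *Gga3* and *Map3k11* (0.96, 0.93 and 0.92), and for *Smad7* *Slc25a37*, *Fancg* and *Cxcl12* (0.86, 0.84 and 0.83). With 12 libraries and this many genes, values of this size are the top of a long list and no p is given. No member was among the closest genes of another. The strongest correlation between members was −0.68, between *Nodal* and *Tdgf1*, followed by 0.55 between *Lefty2* and *Tdgf1*, whereas *Lefty1* and *Lefty2* had 0.020. The points share their set, their sequencing depth and, in part, their cultures.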

How the data were processed

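Reads of 16 serum-grown mESC libraries were aligned by the authors to mm10 with hisat2 and counted per gene with featureCounts. The deposited signal values are counts divided by 1 DESeq2 (1.14.1) size factor per library, for 18659 genes that passed the authors' filter. A second deposited table holds set 1 alone, scaled by edgeR (3.16.5) to CPM with TMM factors, a signal that was used only as a check. The values were whole multiples of 1 read in 100% of cases (tolerance 0.01), so reads were recovered. The 2 libraries of 2i-grown cells were not analyzed here.

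Log2(value + 1) was fitted with limma (3.58.1, R 4.3.3) over all genes whose values summed to 10 or more, with Benjamini-Hochberg adjustment and a threshold of 0.05. The 3 SP libraries of set 1 were averaged to 1 sample. edgeR's quasi-likelihood test (4.0.16) on recovered reads, the set as a block, other filters, pseudocounts, scalings and left-out libraries were alternatives. Same-set libraries deviated together (r = 0.80, 0.82 and 0.77 for SP and scr over the 3 sets, 0.81 for the lowest pair of the panel of sets 2 and 3), and the series' text speaks of replicate sets. The scripts were tested on simulated data. Log2 differences understate the change of low genes. Intervals on reads are exact binomial or Poisson intervals at 95%, and cover counting error only. Coordinates, exon lengths and transcripts are those of GENCODE for GRCm38, which may differ from the authors' annotation. The members and all gene lists were chosen with earlier results of these data known. Genes named are the 7 members, *Stag1*, list genes that passed in a KD comparison of any fit, the highest list gene of each role, and for each member with a mean of at least 50 the 3 most correlated genes, and of the 27 list genes that passed between sets only counts are given. *Inhba* and the cell type markers named fall outside this rule. Of the pathway list as first written, 2 genes are not reported here, and its counts are over the rest.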

Additional observations from a re-analysis of the deposited data

Results flagged for a closer look

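*Lefty1* differed from scr in opposite directions with the same siRNA: by −1.16 on the log2 scale with SP in set 1 (below scr in 3 of 3 libraries) and by 0.63 with SP in sets 2 and 3 (above scr in 2 of 2). *Nodal* did the same with smaller differences, −0.38 in set 1 and 0.23 in sets 2 and 3. The differences between sets were not tested.

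*Lefty2* was below scr in both 3p libraries (mean log2 difference −0.44, which rests on −0.78 in set 3) and above it in both 5p libraries (0.26) and both SATS libraries (0.24). These differences were not tested, because the gene was chosen on them.

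*Cer1* had a log2 difference of −1.31 from scr in SP of set 3, apart from the other 4 SP libraries, which were level with scr at 0 reads. It rests on 1 read against 6 in scr. Such a check marks about 1 in 20 groups by chance.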

How the results depend on the processing

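Leaving out any 1 library or set, other pseudocounts (0.1 and 10), filters, scalings, edgeR without the block and the untreated and luciferase libraries as added controls left the count of list genes called at 0 in the KD comparisons. All of these fits lacked the set as a term. Without that term the main fits called 0.0% to 0.0121% of all genes, so an unchanged count of 0 says little about the list. The block was combined with edgeR, but not with the other filters, scalings or left-out libraries. With the replicate block limma called 1 list gene with 5p (*Tgfb2*), 1 with SATS (*Pcsk6*) and 1 between 5p and 3p (*Tgfbr1*). With edgeR and the block the counts were 1 with SP over 3 sets (*Inhbb*), 1 with SP in sets 2 and 3 (*Fst*), 0 with 5p, 1 with SATS (*Pcsk6*) and 2 between 5p and 3p (*Tgfbr1*, *Eomes*), beside 0.413%, 0.813%, 2.41%, 3.34% and 3.21% of all genes. The block changed no call with 3p. In set 3 against set 2, the 4 members past the threshold passed it in all 13 fits, and *Lefty1* stayed between 2.21 and 2.32. *Smad7* passed in 3 of the 12 alternatives: edgeR (adjusted p = 0.046), the rescaling without *Rn45s* and *Lars2* (adjusted p = 0.037, limma) and without the scr pair (adjusted p = 0.034, limma). The rescaling moved *Acvr2b* of 5p in set 3 from −0.03 to 0.02 and turned no other direction. Depth limits set 1, where *Lefty1* and *Lefty2* rest on 62 to 210 reads, and *Cer1* everywhere.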

Other observations

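With the 3 SP libraries of set 1, *Inhbb* and the primitive endoderm markers ran in the same order: *Inhbb* had a normalized value of 984 in scr and 724, 212 and 72.5 in libraries a, b and c, and the marker sum was 7031, 4842, 2061 and 1635. The sum of the mESC markers ran in that order too (56854, 47634, 41857 and 33446). In sets 2 and 3 the directions parted with SP. *Inhbb* had 125 against 255 in scr of set 2 and 20.2 against 80.5 in set 3. The primitive endoderm sum was 6320 against 5425 in set 2 and 2233 against 2144 in set 3. *Fst*, which encodes follistatin, a binder of activin, had 20.1 in scr of set 1 and 18.8, 32.2 and 137 in its SP libraries a, b and c (3, 4, 10 and 17 reads). In sets 2 and 3 *Fst* was below scr in all 8 KD libraries, as 5.92% of all genes were. It was also below scr in luciferase (log2 difference −0.24) and above it in untreated cells (0.15). It had 106 in scr and 81.4 in SP in set 2, and 347 and 183 in set 3 (adjusted p = 0.053 for SP in limma with the block, 0.029 in edgeR with the block, both with Benjamini-Hochberg adjustment).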
